A study of Mus musculus with 6 samples.

Results

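Irradiation with X-rays was followed in mouse thymus by opposite movements of the signals that guide T cells in and out of the organ: the transcript of Ccr9, a homing receptor of developing thymocytes, was 37.7-fold lower after 24 h, and that of Ccl21a, a medullary chemokine, was 12.9-fold higher. The genes described are 9 with a role in homing to, movement within, or exit from the thymus: the chemokine receptors Ccr9, Ccr7, Ccr4 and Cxcr4, the chemokines Ccl25, Ccl21a, Ccl19 and Cxcl12, and the egress receptor S1pr1. They were taken from the mRNA table by gene symbol. The 9 symbols correspond to 11 gene identifiers, because Ccl21a and Ccl19 each have a second identifier on an unplaced scaffold, out of 21954 genes in the table.

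RNA was sequenced from thymus tissue of C57BL wild-type mice aged 5 weeks, with polyadenylated RNA as the input. The irradiated group (3 libraries, labelled IR) received 6 Gy of X-rays and was killed 24 h later. The control group (3 libraries, labelled WT) was not exposed. Each group had 3 mice, but no label links a library to its mouse, and the p-values therefore rest on the spread between libraries, whatever its source.

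Thymocytes find their way by chemokine receptors that couple to inhibitory G proteins and respond to chemokines made by thymic stroma. Progenitors enter and settle with the help of CCR9, CCR7 and CXCR4. Thymocytes that have passed positive selection move to the medulla by CCR7 and CCR4, and mature cells leave through S1PR1, which senses the lipid sphingosine 1-phosphate in blood and lymph. Cortical epithelium is a main source of CCL25 and of CXCL12, and medullary epithelium of CCL21, in mice the product of Ccl21a in the thymus.

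Expression is given as deposited FPKM, that is, sequenced fragments per kilobase of transcript, scaled to the library's total. Depth, estimated from the smallest step in the FPKM values, was 24400000 to 25600000 fragments in irradiated libraries and 21900000 to 23200000 in control libraries. Differences were tested with limma on log2(FPKM + 0.1), over the 14001 genes that averaged at least 0.5 FPKM, and a gene is called higher or lower where its adjusted p is under 0.05. In this comparison 42.4% of all genes tested were higher and 20.9% lower after irradiation, and the median over all of them was 0.40 on the log2 scale. After median-ratio scaling these shares were 31.5% and 35.4%, and the median was -0.08. Markers fell for T-lineage cells (9 of 9 tested) and for CD4 and CD8 double-positive thymocytes (10 of 12), and rose for fibroblasts (10 of 10), macrophages (10 of 10) and medullary epithelium (11 of 11). Irradiated replicate 2 stood apart in markers of tissue that is not thymic: summed airway epithelium markers came to 47.6, 3300 and 47.2 FPKM in irradiated replicates 1, 2 and 3, against 3.57 to 4.84 FPKM in controls. Summed red blood cell markers reached 1.16, 7362 and 1197 FPKM in irradiated replicates 1, 2 and 3, against 51.2 to 139 FPKM in controls.

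Of the 10 identifiers tested, 5 were higher in irradiated thymus (Ccr7, both Ccl21a identifiers, Cxcl12 and S1pr1), 3 were lower (Ccr9, Ccr4 and Cxcr4) and 2 were not called (Ccl25 and Ccl19). Called genes made up 63.2% of all genes tested, so 8 of 10 lies not far above the background. The 8 called identifiers were also those whose groups did not overlap, and among all genes tested 46.1% were higher and 24.7% lower without overlap. The median log2 fold change of the 10 identifiers was 1.06. Without irradiated replicate 2, 5 identifiers were again higher and 3 lower, and each of the 8 kept its call. In that setting 5073 of all 13600 genes tested were higher and 2481 lower.

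**Figure D1:**
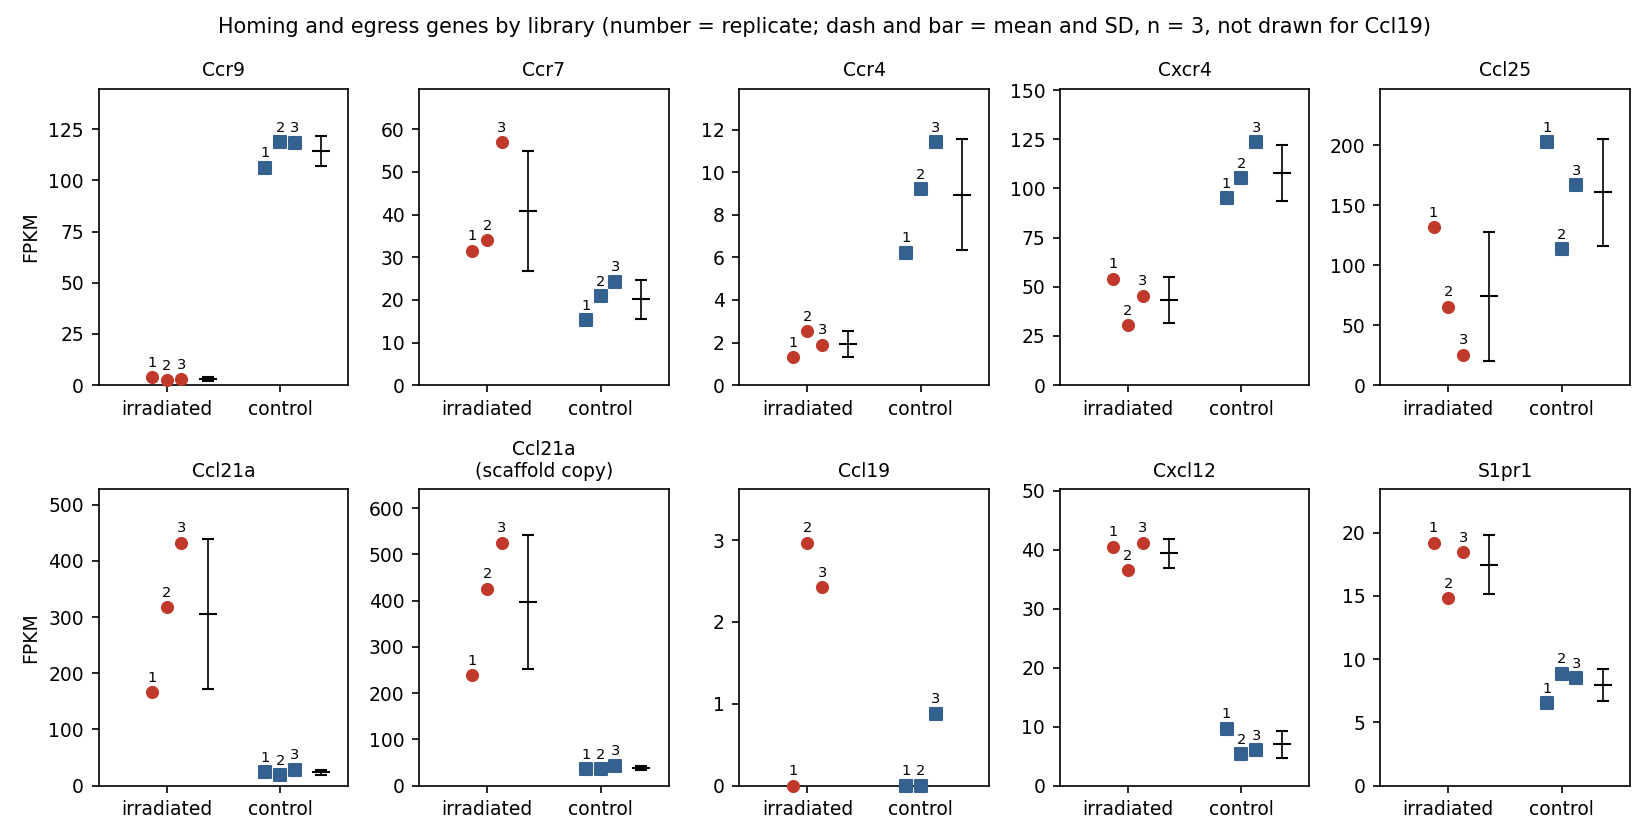
FPKM (vertical axis) of each tested identifier in the 3 irradiated (red circles) and 3 control libraries (blue squares), with the replicate number above each point and the mean and SD (n = 3) beside each group except for Ccl19. The irradiated points lie wholly below the control points for Ccr9, Ccr4 and Cxcr4 and wholly above them for Ccr7, Ccl21a, Cxcl12 and S1pr1, while Ccl25 and Ccl19 overlap.

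Ccr9 (ENSMUSG00000029530; GRCm38 chr9:123678439-123784330, plus strand) encodes the receptor for CCL25 and is abundant on double-positive thymocytes. Its promoter is shown because this gene had the lowest fold change of the set. The 250 bases before its RefSeq start (GRCm38.p6, chr9:123766961-123767210, plus strand) follow, with capitals marking E-boxes, the letters CANNTG searched on both strands, or the TATA letters TATAAA.
Ccr9 promoter: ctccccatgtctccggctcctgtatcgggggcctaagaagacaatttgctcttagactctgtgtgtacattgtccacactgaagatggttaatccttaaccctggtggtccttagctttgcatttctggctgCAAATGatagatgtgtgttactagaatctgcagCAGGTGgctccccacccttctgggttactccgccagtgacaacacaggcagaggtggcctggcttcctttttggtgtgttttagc
This window held 2 E-boxes, and 66.2% of the 32851 promoters in the table held at least 1 in the 250 bases before a start. Ccr9 had 4.02, 2.29 and 2.77 FPKM in irradiated replicates 1, 2 and 3, and 106, 118 and 118 FPKM in control replicates 1, 2 and 3. All 3 irradiated libraries sat near 3 FPKM and far below every control library. Mean levels were 3.03 ± 0.89 FPKM in irradiated and 114 ± 7.13 FPKM in control thymus (SD, n = 3 each), a log2 difference of -5.23 ± 0.21 (SE; limma adjusted p = 4.86e-05). Only 0.0929% of all genes tested had a lower log2 fold change. Irradiated thymus also had less RNA of the cells that carry this receptor: summed double-positive markers came to 160 to 186 FPKM in irradiated and 2147 to 2456 FPKM in control libraries. In bulk tissue, fewer cells of a type and less RNA per cell cannot be told apart.

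To set a receptor against the cells that use it, its log2 level was compared within each library with the mean log2 level of a marker list, a difference in which the scaling between libraries largely cancels, except for markers near the added 0.1 FPKM. With 3 libraries against 3 the exact two-sided permutation test cannot go below p = 0.1. Against 9 T-lineage markers, Ccr9 differed by -3.03 log2 units between irradiated and control libraries, with no overlap (exact permutation p = 0.1, adjusted 0.143 over 10 identifiers). Against 12 double-positive markers, a list added after the values were seen, the deficit was smaller, at -0.82 log2 units, again with no overlap (exact permutation p = 0.1). Thus Ccr9 was lower relative to both lists, by less relative to the double-positive one. Members of the double-positive list ran from -8.56 (Rag1) to -0.29 (Cd24a) on the log2 scale. Rag1, Rag2, Dntt and Arpp21 fell further than Ccr9 on that scale. Ptcra lay close to Ccr9, at -5.20 ± 0.43 (SE), with irradiated values near the added 0.1 FPKM. By group means Ptcra was 46.6-fold lower, against 37.7-fold for Ccr9. The remaining listed markers fell less. The difference from that list therefore depends on which markers it holds.

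Ccr4 (ENSMUSG00000047898; chr9:114490316-114504916, minus strand) encodes the receptor for CCL17 and CCL22 and appears on thymocytes soon after positive selection. It had 1.31, 2.54 and 1.91 FPKM in irradiated replicates 1, 2 and 3, and 6.21, 9.21 and 11.4 FPKM in control replicates 1, 2 and 3. The highest irradiated library lay below the lowest control library. Means were 1.92 ± 0.61 FPKM in irradiated and 8.94 ± 2.61 FPKM in control thymus (SD, n = 3 each), a log2 difference of -2.17 ± 0.31 (SE; limma adjusted p = 0.00102). Against the T-lineage markers the Ccr4 values of the groups overlapped, with a difference of 0.04 log2 units (exact permutation p = 1). Against 8 markers of mature T cells, a comparison added after the values were seen, Ccr4 was lower by -1.78 log2 units without overlap (exact permutation p = 0.1). Those markers ran from -3.28 (H2-Q2) to 1.46 (Klf2) on the log2 scale, so this difference depends on which markers the list holds.

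Cxcr4 (ENSMUSG00000045382; chr1:128588199-128592293, minus strand) encodes the receptor for CXCL12, which acts on early and double-positive thymocytes and on many blood cells. It had 54.1, 30.5 and 45.4 FPKM in irradiated replicates 1, 2 and 3, and 94.9, 105 and 123 FPKM in control replicates 1, 2 and 3. Every irradiated library was below every control library. Means were 43.3 ± 11.9 FPKM in irradiated and 108 ± 14.4 FPKM in control thymus (SD, n = 3 each), a log2 difference of -1.35 ± 0.23 (SE; limma adjusted p = 0.0023). Relative to T-lineage markers the direction was the opposite: Cxcr4 was 0.86 log2 units higher in irradiated libraries, without overlap (exact permutation p = 0.1, adjusted 0.143). Relative to double-positive markers, added after the values were seen, it was 3.06 log2 units higher, also without overlap (exact permutation p = 0.1). The macrophage markers, a list of cells that can also carry Cxcr4, summed to 1603 to 1802 FPKM in irradiated and 230 to 330 FPKM in control libraries, and their part in the Cxcr4 level was not tested.

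Ccr7 (ENSMUSG00000037944; chr11:99144196-99155077, minus strand) encodes the receptor for CCL19 and CCL21, used by positively selected thymocytes and by migrating dendritic cells. It had 31.6, 34.0 and 56.9 FPKM in irradiated replicates 1, 2 and 3, and 15.3, 20.9 and 24.2 FPKM in control replicates 1, 2 and 3. The irradiated libraries all exceeded the controls, and irradiated replicate 3 was well above the other two. Means were 40.8 ± 14.0 FPKM in irradiated and 20.1 ± 4.51 FPKM in control thymus (SD, n = 3 each), a log2 difference of 0.99 ± 0.27 (SE; limma adjusted p = 0.0157). The call was lost after median-ratio scaling, with a log2 fold change of 0.52 (limma, adjusted p = 0.0993), and without control replicate 1, with 0.81 (limma, adjusted p = 0.0602). These values rest on an estimated 675 to 2752 fragments per library.

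Relative to T-lineage markers Ccr7 was 3.19 log2 units higher in irradiated libraries, without overlap (exact permutation p = 0.1, adjusted 0.143). Of 8 mature T cell markers other than the genes described here, 3 were higher and 3 lower, and their median was 0.01 on the log2 scale. Relative to this list, added after the values were seen, Ccr7 was 1.38 log2 units higher (exact permutation p = 0.1). Relative to 9 dendritic cell markers, added in the same way, it differed by -0.030 log2 units and the groups overlapped (exact permutation p = 0.7). Summed dendritic cell markers came to 53.0, 75.8 and 105 FPKM in irradiated replicates 1, 2 and 3, highest in the library with most Ccr7, and 16.2 to 22.8 FPKM in controls. Of these 9 markers 3 were higher (Itgax, Sirpa and Zbtb46), none was lower and 6 were not called, and Itgax and Sirpa, which macrophages also express, made up most of the sum in every irradiated library. The part of dendritic cells in the Ccr7 level was not tested.

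**Figure D2:**
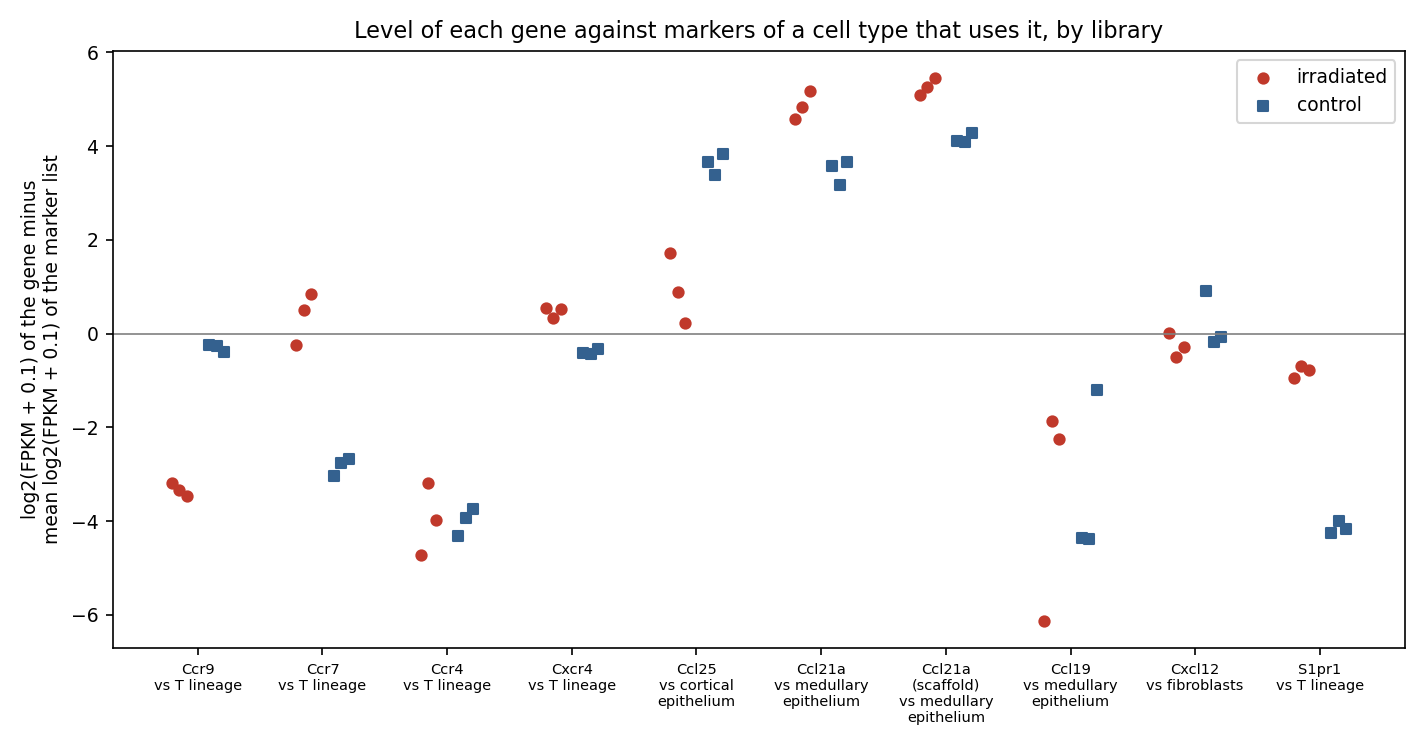
Log2(FPKM + 0.1) of each gene minus the mean log2(FPKM + 0.1) of the marker list named under it (vertical axis), in each irradiated (red circles) and control library (blue squares). Within the T-lineage comparisons, irradiated libraries are lower for Ccr9, higher for Ccr7, Cxcr4 and S1pr1, and mixed with controls for Ccr4.

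Among the ligands, Ccl21a changed most. CCL21 is made by medullary epithelium in the thymus and draws CCR7-bearing thymocytes to the medulla. The identifier on chromosome 4 (ENSMUSG00000094686; chr4:42772860-42773993, minus strand) had 167, 317 and 432 FPKM in irradiated replicates 1, 2 and 3, and 24.2, 18.8 and 28.2 FPKM in control replicates 1, 2 and 3. The lowest irradiated library was several times the highest control. Means were 305 ± 133 FPKM in irradiated and 23.7 ± 4.69 FPKM in control thymus (SD, n = 3 each), a log2 difference of 3.59 ± 0.35 (SE; limma adjusted p = 0.000218). The scaffold identifier (ENSMUSG00000095320; JH584294.1:121048-121713) had 239, 426 and 525 FPKM in irradiated replicates 1, 2 and 3, and 35.4, 35.7 and 43.1 FPKM in control replicates 1, 2 and 3. It followed the same order of libraries within the irradiated group and was 10.4-fold higher, with a log2 difference of 3.31 ± 0.30 (SE; limma adjusted p = 0.000165).

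The mouse genome holds several near-identical copies of this chemokine gene, and reads can be split between them in a way the deposited values do not show. A search with 31-base words found that Gm21541, Gm13304, Ccl21b and Gm10591 shared 80.6%, 82.8%, 83.3% and 83.3% of their words with Ccl21a. Coding bases 76 to 195 of Ccl21a, Ccl21b and Gm10591 on chromosome 4, from GENCODE transcripts on GRCm38, are shown because they contain the only bases at which the coding models of Ccl21a and Ccl21b differ, 2 of 402, which are in capitals.
Ccl21a: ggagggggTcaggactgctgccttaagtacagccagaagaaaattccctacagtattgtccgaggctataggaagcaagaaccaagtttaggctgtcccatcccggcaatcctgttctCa
Ccl21b: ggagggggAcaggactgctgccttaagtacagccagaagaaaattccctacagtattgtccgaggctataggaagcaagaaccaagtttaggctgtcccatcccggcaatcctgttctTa
Gm10591: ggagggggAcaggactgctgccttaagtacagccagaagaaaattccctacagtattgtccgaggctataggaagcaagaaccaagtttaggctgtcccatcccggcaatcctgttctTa
Gm10591 was identical to Ccl21b over this stretch, so most fragments from it cannot be assigned to 1 gene. Summed over all 9 Ccl21 identifiers, the level was 572, 1011 and 1330 FPKM in irradiated replicates 1, 2 and 3, and 91.5, 74.7 and 97.0 FPKM in control replicates 1, 2 and 3. The groups lay far apart, with means of 971 ± 381 FPKM in irradiated and 87.7 ± 11.6 FPKM in control thymus (SD, n = 3 each) and a log2 difference of 3.39 ± 0.34 (SE; limma adjusted p = 0.000232), in a fit added after the values were seen. The Ccl21a identifiers made up 65.1% to 73.5% of the sum. The annotated lengths of the identifiers run from 402 to 870 bases, so the summed FPKM also depends in part on how fragments were split between copies.

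Relative to 12 medullary epithelium markers, of which 11 were tested with a median of 2.32 on the log2 scale, Ccl21a was 1.40 (chromosome 4) and 1.11 log2 units (scaffold) higher in irradiated libraries. Neither comparison overlapped (exact permutation p = 0.1 each, adjusted 0.143). The tested medullary markers ran from 0.78 (Aire) to 3.34 (Krt5) on the log2 scale. Ivl, listed but not tested, averaged 0.0615 FPKM in controls, below the added 0.1 FPKM. The difference from this list therefore depends on which markers it holds. Lymphatic endothelium also makes CCL21. Its 5 other markers summed to 2.11, 30.4 and 11.2 FPKM in irradiated replicates 1, 2 and 3, and to 0.452 to 1.15 FPKM in controls, and relative to that list, added after the values were seen, the Ccl21a groups overlapped (exact permutation p = 0.4 and p = 0.5). Ccl21a was lowest of the irradiated group in replicate 1, where those markers were also lowest, but replicate 2, where they were highest, was not the highest in Ccl21a. In controls the lymphatic markers were on average near the added 0.1 FPKM, so the comparison with them depends in part on that value. The part of lymphatic vessels in the level was not tested. The 250 bases before the RefSeq start of Ccl21a (GRCm38.p6, chr4:42773992-42774241, minus strand), shown because this gene had the highest fold change of the set, hold 1 E-box in capitals.
Ccl21a promoter: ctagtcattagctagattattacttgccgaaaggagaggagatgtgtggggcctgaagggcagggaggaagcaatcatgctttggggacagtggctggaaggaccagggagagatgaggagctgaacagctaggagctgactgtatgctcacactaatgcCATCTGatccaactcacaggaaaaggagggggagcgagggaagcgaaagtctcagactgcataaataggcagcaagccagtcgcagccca

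Ccl19 encodes the other ligand of CCR7. Its chromosome 4 identifier (ENSMUSG00000071005; chr4:42754525-42756543, minus strand) was listed at 0, 2.96 and 2.43 FPKM in irradiated replicates 1, 2 and 3, and at 0, 0 and 0.878 FPKM in control replicates 1, 2 and 3. The groups overlapped and the gene was not called (limma, adjusted p = 0.253). Without irradiated replicate 1, the library listed at 0, it passed the threshold (limma, adjusted p = 0.0119). The scaffold identifier (ENSMUSG00000094661) was listed at 0 in all 6 libraries and was not tested. The 4 other annotated copies, none of which is in the mRNA table, share 68.0% to 100% of their 31-base words with Ccl19. Of 79 ribosomal protein genes, 3 were also listed at 0 in 1 library or more. Whether a listed 0 of Ccl19 was a failed estimate or a low level was not tested. Cxcl13, a chemokine of lymph node stroma chosen for mention after its values were seen, had 3.36, 14.3 and 19.1 FPKM in irradiated replicates 1, 2 and 3, and 0.545, 0.707 and 0.698 FPKM in control replicates 1, 2 and 3. The 2 irradiated libraries with Ccl19 thus had most Cxcl13. Of 6 tested markers of lymph node stroma, Cxcl13 included, 1 was higher, 1 lower and 4 were not called. Their median was 0.61 on the log2 scale, and the part of neighbouring lymph node in these values was not tested.

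Ccl25 (ENSMUSG00000023235; chr8:4325233-4360020, plus strand) encodes the ligand of CCR9 and is a product of cortical epithelium under the transcription factor FOXN1. RefSeq gives it 2 starts. Both promoters are shown because the noncoding transcripts ENSMUST00000207839 and ENSMUST00000153254 of the locus begin near the upstream one. The upstream window (chr8:4324960-4325209, plus strand) held no E-box and no TATA match, and the downstream window (chr8:4349338-4349587, plus strand) held 1 of each, in capitals; 12.4% of the 32851 promoters held TATAAA. The core letters GACGC of the FOXN1 motif, searched on both strands of these windows and not in capitals, occurred in the upstream one only. Over the same length, 22.6% of all promoters held them.
Ccl25 upstream promoter: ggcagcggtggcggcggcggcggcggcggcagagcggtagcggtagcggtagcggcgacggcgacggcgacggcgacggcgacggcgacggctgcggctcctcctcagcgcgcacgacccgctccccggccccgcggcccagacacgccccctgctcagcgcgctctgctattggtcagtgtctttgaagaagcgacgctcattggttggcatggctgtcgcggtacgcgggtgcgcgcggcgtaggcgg
Ccl25 downstream promoter: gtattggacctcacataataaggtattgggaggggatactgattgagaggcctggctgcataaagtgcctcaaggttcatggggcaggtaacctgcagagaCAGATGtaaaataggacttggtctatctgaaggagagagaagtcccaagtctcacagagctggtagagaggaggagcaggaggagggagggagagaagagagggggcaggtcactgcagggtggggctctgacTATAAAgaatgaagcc
Ccl25 had 132, 65.3 and 25.4 FPKM in irradiated replicates 1, 2 and 3, and 202, 113 and 166 FPKM in control replicates 1, 2 and 3. The groups overlapped, as irradiated replicate 1 exceeded control replicate 2, and the irradiated libraries varied widely among themselves. Means were 74.2 ± 53.8 FPKM in irradiated and 161 ± 44.7 FPKM in control thymus (SD, n = 3 each). The log2 fold change of -1.37 ± 0.56 (SE) did not pass the threshold (limma, adjusted p = 0.0665). It did so after median-ratio scaling, at -1.84 (limma, adjusted p = 0.0255), and without irradiated replicate 1, at -1.94 (limma, adjusted p = 0.00388). Without irradiated replicate 3 it was -0.75 (limma, adjusted p = 0.140), without control replicate 1 it was -1.19 (limma, adjusted p = 0.181), and after quantile normalization it was -1.32 (limma, adjusted p = 0.130). For Ccl25 the authors' deposited table has -1.25 (log2), with an adjusted p of 0.0160.

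Of 12 cortical epithelium markers, 9 were higher in irradiated thymus and none was lower, with 1.66 as their median on the log2 scale. The 9 include genes that other cells also express, such as Ctsl, Krt8, Kitl and Ly75, and the 3 not called were Prss16, Psmb11 and Tbata, at log2 fold changes of -0.99, -0.78 and 0.24. Whether cortical epithelial cells were fewer was not tested. Relative to these markers Ccl25 was lower in irradiated libraries by -2.68 log2 units, with no overlap (exact permutation p = 0.1, adjusted 0.143). Foxn1, the gene of that factor, chosen for mention after its values were seen, had 7.56, 17.9 and 12.3 FPKM in irradiated replicates 1, 2 and 3, and 3.48, 2.23 and 3.18 FPKM in control replicates 1, 2 and 3. Foxn1 was higher in every irradiated library (log2 fold change 1.99 ± 0.33, SE; limma, adjusted p = 0.0019). Prss16, a serine protease of cortical epithelium chosen in the same way, had 256, 93.3 and 25.8 FPKM in irradiated replicates 1, 2 and 3, and 265, 153 and 119 FPKM in control replicates 1, 2 and 3. Its irradiated libraries stood in the same order as those of Ccl25, and it was not called (limma, adjusted p = 0.294). Psmb11, the thymoproteasome subunit of the same cells, was not called either (limma, adjusted p = 0.326).

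Cxcl12 (ENSMUSG00000061353; chr6:117168535-117181367, plus strand) encodes the ligand of CXCR4, made by cortical epithelium, fibroblasts and vessel-associated cells. It had 40.5, 36.6 and 41.2 FPKM in irradiated replicates 1, 2 and 3, and 9.68, 5.31 and 6.03 FPKM in control replicates 1, 2 and 3. The irradiated libraries lay close together and well above all controls. Means were 39.4 ± 2.47 FPKM in irradiated and 7.01 ± 2.35 FPKM in control thymus (SD, n = 3 each), a log2 difference of 2.52 ± 0.23 (SE; limma adjusted p = 0.000167) and a 5.62-fold higher mean. Fibroblast markers rose too, to sums of 732 to 824 FPKM in irradiated libraries, against 76.8 to 101 FPKM in controls. Relative to 10 fibroblast markers Cxcl12 differed by -0.48 log2 units and the groups overlapped (exact permutation p = 0.3, adjusted 0.375). Relative to endothelium markers, added after the values were seen, it also overlapped (-0.47 log2 units; exact permutation p = 0.5). Relative to cortical epithelium markers, added in the same way, it was 1.21 log2 units higher without overlap (exact permutation p = 0.1).

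S1pr1 (ENSMUSG00000045092; chr3:115710433-115715072, minus strand) encodes the receptor that mature thymocytes need in order to leave, and endothelial cells express it as well. It had 19.2, 14.8 and 18.4 FPKM in irradiated replicates 1, 2 and 3, and 6.54, 8.85 and 8.51 FPKM in control replicates 1, 2 and 3. All irradiated libraries exceeded all controls. Means were 17.5 ± 2.35 FPKM in irradiated and 7.96 ± 1.25 FPKM in control thymus (SD, n = 3 each), a log2 difference of 1.13 ± 0.18 (SE; limma adjusted p = 0.00147). The values rest on an estimated 444 to 1436 fragments per library. Relative to T-lineage markers S1pr1 was 3.33 log2 units higher in irradiated libraries (exact permutation p = 0.1, adjusted 0.143), and relative to mature T cell markers, added after the values were seen, 1.51 log2 units higher (exact permutation p = 0.1). Relative to 10 endothelium markers, added in the same way, it was lower by -1.86 log2 units (exact permutation p = 0.1), and none of these 3 comparisons overlapped. The mature T cell markers were split, 3 higher and 3 lower, and ran from -3.28 (H2-Q2) to 1.46 (Klf2) on the log2 scale. The difference from that list therefore depends on which markers it holds. Summed endothelium markers were 54.5, 141 and 132 FPKM in irradiated replicates 1, 2 and 3, against 33.6 to 42.9 FPKM in controls. Pecam1, not called at 0.12, made up most of the control sums, while the other 9 of the 10 markers were higher, and the median of the list was 3.08 on the log2 scale. S1pr1 was highest in irradiated replicate 1, where endothelium markers were the lowest of that group, and the part of vessels in its level was not tested.

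**Figure D3:**
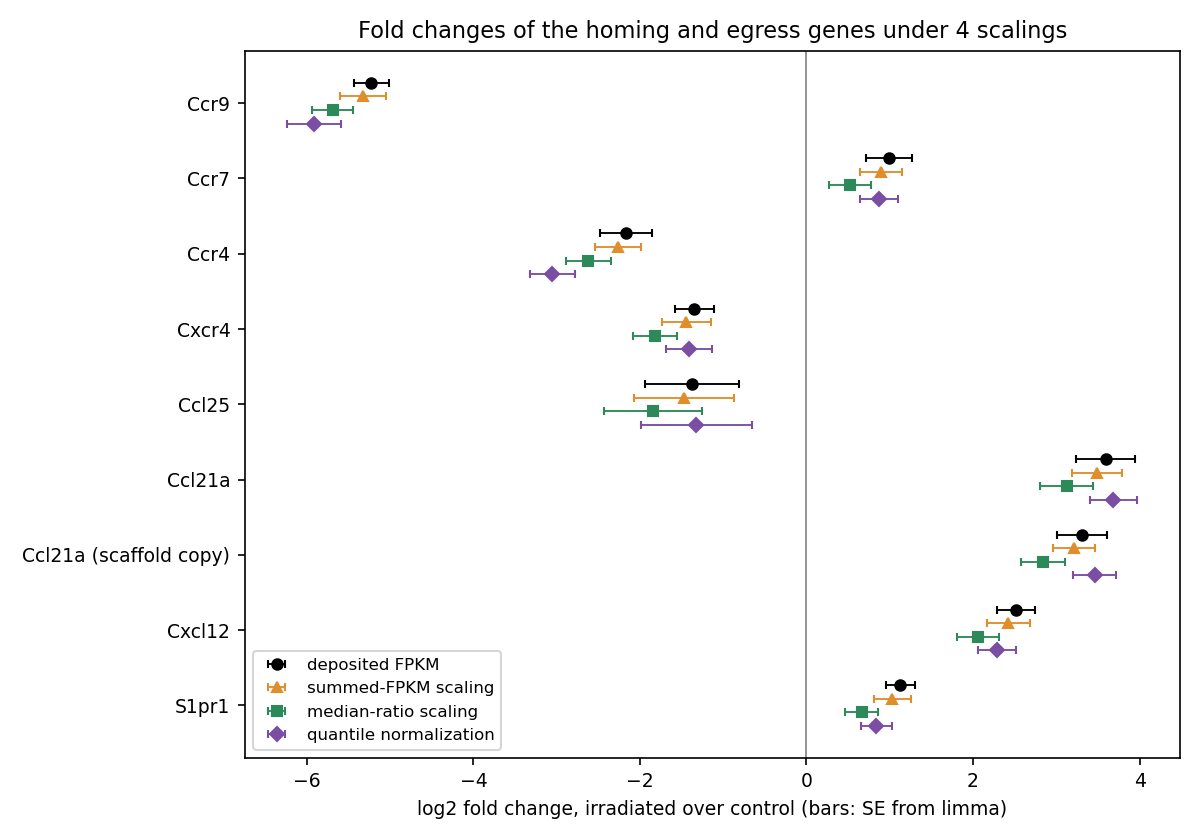
Log2 fold change of irradiated over control (horizontal axis; bars are SE from limma) for each tested identifier except Ccl19, from the deposited FPKM and after 3 other scalings between libraries. Each gene keeps its sign under every scaling shown, and Ccr7 and S1pr1 come nearest to 0, at 0.52 and 0.66 after median-ratio scaling.

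The order of the transcripts by level per length differed between the groups. In irradiated thymus the scaffold and chromosome 4 identifiers of Ccl21a led, at 397 and 305 FPKM, followed by Ccl25, Cxcr4, Ccr7, Cxcl12, S1pr1, Ccr9, Ccr4 and Ccl19. In control thymus Ccl25 led, at 161 FPKM, followed by Ccr9, Cxcr4, the scaffold and chromosome 4 identifiers of Ccl21a, Ccr7, Ccr4, S1pr1, Cxcl12 and Ccl19. Neighbours whose ranges overlapped in irradiated thymus were the Ccl21a pair, Ccl25 with Cxcr4, Cxcr4 with Ccr7, Ccr7 with Cxcl12, Ccr9 with Ccr4, and Ccr4 with Ccl19. In control thymus they were Ccl25 with Ccr9, Ccr9 with Cxcr4, chromosome 4 Ccl21a with Ccr7, Ccr4 with S1pr1, and S1pr1 with Cxcl12.

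The genes whose profile over the 6 libraries was most like each of these were sought among 9078 genes averaging at least 5 FPKM, by the root-mean-square distance of centred log2 values. For Ccr9 they were Spo11, Hist3h2ba and Chrna9, at distances of 0.20 to 0.28. For Ccr7 they were Sh3bp2, Clta and Bcl2a1d (0.11 to 0.12), and for Ccr4 Stx6, Adam12 and Arntl (0.24 to 0.27). For Cxcr4 they were Setd4, Agap2 and Patz1 (0.07 to 0.10). Chromosome 4 Ccl21a was closest to Bhlhe40, Cdh1 and Il33 (0.13 to 0.16), and the scaffold identifier to Abhd4, Fam129b and Sdc1 (0.08 to 0.11). Cxcl12 was closest to Lgr4, Wnt4 and Ap1m2 (0.12 to 0.13), and S1pr1 to Flt3l, Plekha1 and Bod1 (0.08 to 0.09). Ccl25 had no near neighbour by comparison, with Cggbp1, Rgcc and Cmc4 at 0.37 to 0.40, and Ccl19 was farthest, with Upk3b, Chil3 and Alas2 at 0.94 to 1.07.

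The lncRNA table held 6 noncoding transcripts of these loci: 3 of Ccl25 and 1 each of Cxcl12, Ccr9 and Ccl19. Of these, 4 averaged at least 0.5 FPKM, and none was called by limma, against 32.8% of the 19247 transcripts tested. At an unadjusted p under 0.05 there were 2, both of Ccl25, against 47.3% of all. They were ENSMUST00000207925 (log2 fold change -0.64 ± 0.25, SE; limma, adjusted p = 0.0786) and ENSMUST00000153254 (log2 fold change -1.86 ± 0.77, SE; limma, adjusted p = 0.0959). ENSMUST00000207925, with 1 exon, had 3.72, 2.38 and 3.36 FPKM in irradiated replicates 1, 2 and 3, and 5.22, 4.69 and 4.80 FPKM in control replicates 1, 2 and 3, and its groups did not overlap. The transcript at the upstream start, ENSMUST00000207839, had 3.73, 3.28 and 3.19 FPKM in irradiated replicates 1, 2 and 3, and 4.20, 3.41 and 4.34 FPKM in control replicates 1, 2 and 3, with overlap (limma, adjusted p = 0.459). Whether these reads were counted by strand, or shared with the coding transcripts, is not given in the sources used here.

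Beyond these genes, 5 lists described the rest of the pathway, with 69 tested identifiers, of which 32 were higher, 16 lower and 21 not called. These shares are close to the 42.4% higher and 20.9% lower among all genes tested. Their median log2 fold change was 0.64, against 0.40 for all genes tested, and 45 of 67 were called without irradiated replicate 2. The partner ligands and scavenger receptors were mostly higher, with 8 of 10 higher (5 after quantile normalization), none lower and a median of 2.73. They included 3 identifiers of Ccl21b, which share sequence with Ccl21a as described above. Ackr4, the scavenger of CCL19, CCL21 and CCL25, averaged 11.1 ± 4.43 FPKM in irradiated and 2.59 ± 0.50 FPKM in control thymus (SD, n = 3 each; limma, adjusted p = 0.0012). Ackr3, the scavenger of CXCL12, averaged 6.15 ± 3.92 FPKM in irradiated and 0.814 ± 0.309 FPKM in control thymus (SD, n = 3 each; limma, adjusted p = 0.00908), and lost its call after quantile normalization (limma, adjusted p = 0.0942). Ackr1, a chemokine-binding receptor of venules and red cells, and Ccrl2, a chemerin-binding receptor, had log2 fold changes of 3.44 and 3.47, and the call of Ackr1 was also lost after quantile normalization (limma, adjusted p = 0.0519). Ackr2 fell below the level filter and was not tested.

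The CCR4 ligands gave no firm result. Ccl17 averaged 4.16 ± 0.97 FPKM in irradiated and 2.43 ± 0.51 FPKM in control thymus (SD, n = 3 each; limma, adjusted p = 0.04), and the call was lost in 10 alternatives, among them without irradiated replicates 1 or 3 and without any 1 control, with a reversed sign after quantile normalization (-0.21). Ccl22 averaged 14.0 ± 7.90 FPKM in irradiated and 7.31 ± 0.74 FPKM in control thymus and was not called (limma, adjusted p = 0.223). Ccl21c, a CCL21 copy and not a CCR4 ligand, was also not called (limma, adjusted p = 0.308). For Ccl21c the authors' deposited table has 3.38 (log2), with an adjusted p of 0.0423.

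Among genes of sphingosine 1-phosphate supply and egress control, 12 of 15 tested were higher and 1 lower, or 2 lower without irradiated replicate 1 (median 1.57 on the log2 scale). The lipid phosphatases Plpp1, Plpp2 and Plpp3, which break down extracellular lipid phosphates, had log2 fold changes of 2.61, 3.52 and 3.28. Sgpl1, the lyase that degrades sphingosine 1-phosphate, averaged 117 ± 7.82 FPKM in irradiated and 33.7 ± 6.35 FPKM in control thymus (SD, n = 3 each; limma, adjusted p = 0.000198). Spns2, the exporter of the lipid from endothelium, and the receptor S1pr3 had log2 fold changes of 2.48 and 2.07. Klf2, the transcription factor that drives S1pr1 in mature T cells and is also expressed in endothelium, averaged 33.0 ± 3.96 FPKM in irradiated and 11.9 ± 1.52 FPKM in control thymus (SD, n = 3 each; limma, adjusted p = 0.000273). Cd69, whose protein pulls S1PR1 from the cell surface, was the only one called lower, at 8.55 ± 3.84 FPKM in irradiated and 25.0 ± 5.14 FPKM in control thymus (SD, n = 3 each; log2 fold change -1.64; limma, adjusted p = 0.00789). S1pr2 was higher by 1.12 but lost its call without any 1 control library (limma, adjusted p = 0.0550 to 0.0560) and under 2 of the scalings, and S1pr4 was not called (-0.35; limma, adjusted p = 0.388).

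Of 13 progenitor entry and adhesion genes, 5 were higher and 3 lower, with a median of 0.44, close to the 42.4%, 20.9% and 0.40 of all genes tested. After median-ratio scaling 5 were lower, and without control replicate 2 only 3 were higher. Cdh1 (E-cadherin, the epithelial adhesion molecule), Icam1 and Vcam1 (ligands of leukocyte integrins) had log2 fold changes of 3.52, 1.83 and 1.79. The integrin chains Itgal and Itga4, which bind ICAM1 and VCAM1 on the leukocyte side, fell by 1.14 and 0.94. Selp, the P-selectin of activated endothelium, averaged 4.98 ± 3.51 FPKM in irradiated and 0.474 ± 0.399 FPKM in control thymus (SD, n = 3 each; limma, adjusted p = 0.0166), and its call was lost without irradiated replicate 2, irradiated replicate 3 or control replicate 2 (limma, adjusted p = 0.0522 to 0.0582) and after quantile normalization (limma, adjusted p = 0.109).

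The signal transduction and motility list leaned the other way, with 12 of 22 lower, 4 higher (2 after median-ratio scaling) and a median of -0.58. Of all genes tested 20.9% were lower and 42.4% higher. Coro1a, the actin regulator that thymocytes require for egress, averaged 113 ± 27.3 FPKM in irradiated and 405 ± 60.7 FPKM in control thymus (SD, n = 3 each; log2 fold change -1.85; limma, adjusted p = 0.000667). Pik3cg, Stk4 and Rap1a, a kinase of lipid signalling, a kinase of T cell adhesion and a small GTPase, fell by 0.91, 1.16 and 0.88, and Gnai3, an inhibitory G protein subunit, fell by 0.83. Arrb2, the arrestin that desensitizes receptors, was higher by 1.26. Rgs1, which shortens G protein signalling, was higher by 1.06 but changed sign after quantile normalization (-0.12), and its call was also lost after median-ratio scaling (limma, adjusted p = 0.118) and without control replicate 2 (limma, adjusted p = 0.0572). T-lineage markers fell in the same libraries by a median of -2.22, and their part in this list was not tested. The list of other chemokine receptors had a median log2 fold change of 0.44, close to the 0.40 of all genes tested. None of that list was called lower, but 4 were after quantile normalization. Among them Ccr2 and Cxcr3, receptors of monocytes and of activated T cells, were higher from the deposited FPKM, at log2 fold changes of 2.07 and 1.54. The Ccr2 and Cxcr3 calls were both lost after quantile normalization (limma, adjusted p = 0.0858 and 0.618). For Cxcr3 the call was also lost after median-ratio scaling (limma, adjusted p = 0.0561) and without any 1 of irradiated replicates 2 and 3 and the 3 controls.

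**Figure D4:**
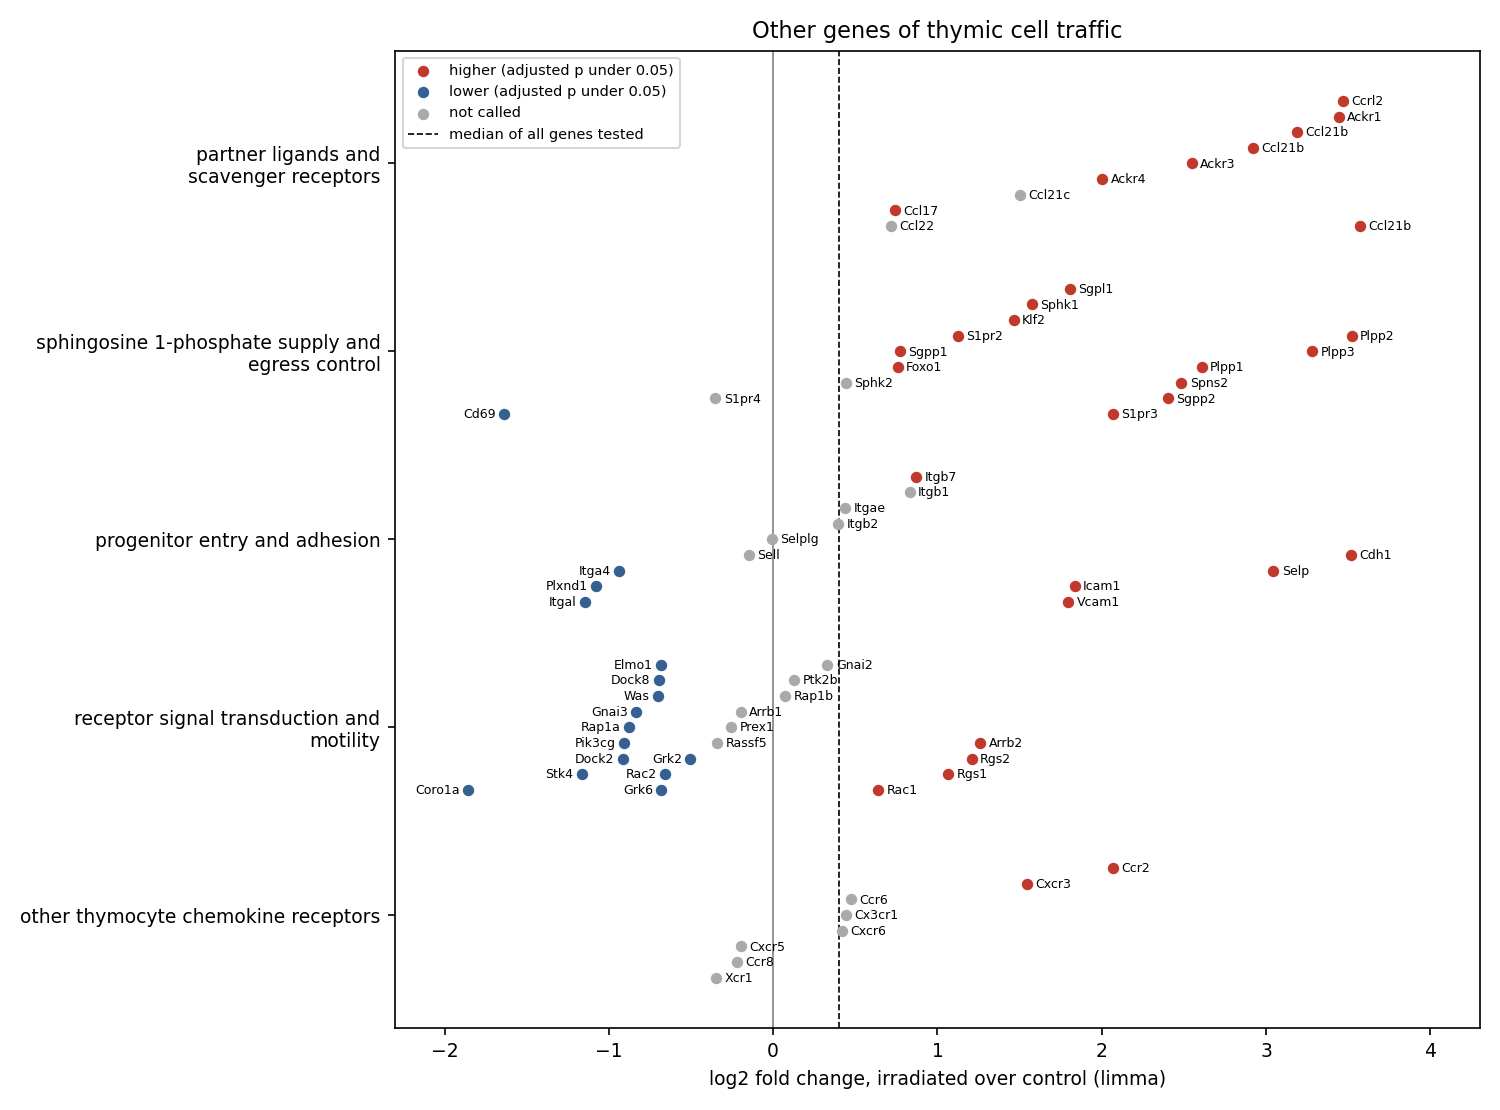
Log2 fold change of irradiated over control (horizontal axis, limma) for tested genes of the 5 pathway lists (rows), coloured by call, with the median of all genes tested as a dashed line at 0.40. Ligand partners and sphingosine 1-phosphate genes lie mostly to the right of it, and signal transduction genes mostly to the left.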

How the data were processed

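Polyadenylated thymus RNA from 3 irradiated and 3 control libraries was sequenced, and libraries were grouped by their labels. The deposited tables give FPKM per library as computed by the authors, for mRNA genes and for noncoding transcripts, with the authors' log2 fold change, p-value and adjusted p-value. DESeq2 1.10.1 is named in the submitters' processing notes. Which aligner, counting method, strandedness and annotation were used is not given in the sources used here. Among 58693 transcripts found in GENCODE M21 (GRCm38), 99.79% had the same start and end as in the deposited mRNA table. Each gene's lines repeat 1 set of values, so 1 value per gene was used. Dropped were 62 lines of the lncRNA table that hold no values, and 27 mRNA gene names turned into dates were restored from the identifier.

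The tests used limma 3.58.1 in R 4.3.3 on log2(FPKM + 0.1) with an abundance trend and a group-only model, for genes averaging at least 0.5 FPKM, with Benjamini-Hochberg adjustment within each table. Fold changes on this scale understate those of low genes. The fit was tested on simulated data with 200 changed genes. Marker comparisons used an exact permutation test over libraries. Depth was estimated from the smallest step in the FPKM of genes with 1 transcript, taken as 1 fragment. Promoters came from RefSeq tables of GRCm38.p6, in which 7 of the 9 genes had an entry. Alternatives were other pseudocounts (0.01 and 1), filters, 3 scalings, a fit without the trend, a replicate block and leaving out each library.

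All 9 genes are named. In each pathway list the genes named are up to 6 with the smallest adjusted p, plus ligands, receptors and scavengers of the 9, and S1pr2, S1pr4, Spns2, Cd69 and Rgs1 were chosen after their values were seen, as were the marker genes so described. A gene of the lists is not reported here. The genes and lists were chosen with earlier results of these data known.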

Additional observations from a re-analysis of the deposited data

How the results depend on the processing

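Across 15 alternatives, Ccr9, Ccr4, Cxcr4, both Ccl21a identifiers, Cxcl12 and S1pr1 kept direction and call. Without 1 library, 4 to 6 of the 10 identifiers were higher and 3 to 4 lower, 40 to 53 of the pathway identifiers were called, and 7 to 8 marker comparisons did not overlap. Calls among all genes moved too. Higher genes ran from 4916 of 14143 (without control replicate 2) to 6730 of 13945 (without irradiated replicate 1). Lower genes ran from 2150 of 14130 (without control replicate 3) to 3466 of 13945 (without irradiated replicate 1). Without irradiated replicate 1, 1 noncoding transcript was called in place of 0 (range 0 to 1 over libraries left out), and 1 with a pseudocount of 1. The cause was not tested. Signs reversed for Rgs1 (-0.12; limma, adjusted p = 0.817) and Ccl17 (-0.21; limma, adjusted p = 0.623) under quantile normalization, for Ccr7 against dendritic cell markers (-0.030) for S1pr1 against endothelium markers (-1.86), and, where the first comparison overlapped, for Ccr4 against mature T cell markers (-1.78) and Cxcl12 against cortical epithelium markers (1.21).

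Deviations of same-numbered libraries correlated at 0.06, -0.04 and 0.05 over 14001 genes, and those of differently numbered libraries at -0.10 to 0.06. With 3 libraries per group these values cannot decide whether replicate numbers shared by the groups pair the libraries. With the replicate number as a block, 5 identifiers were higher and 4 lower, Ccl25 passing the threshold (-1.37; limma, adjusted p = 0.0452), and 48 pathway identifiers and 0 noncoding transcripts were called. Among all 14001 genes tested, 5693 were higher and 2662 lower in that fit. Precision is limited by 3 libraries per group.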
